A study of Homo sapiens with 18 samples.

Results

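The 10 genes described here carry the signal of the TGF-beta and activin family in fibroblasts, from secreted ligands through receptors to feedback and output. They are TGFB1, TGFB2, TGFB3, INHBA, FST, BMP2, TGFBR1, TGFBR2, SMAD7 and TGFBI, taken by name as a list and matched on gene symbol in a count table of 57500 genes. All 10 were found and all 10 passed the filter on low counts, which left 16994 genes. They were measured by polyA RNA-seq in 18 libraries of IMR90 human lung fibroblasts.

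The libraries form 6 groups of 3. Prol cells were proliferating. Sen (IR) cells were made senescent by X-ray irradiation with 20 Gy. Sen (IR) + CCCP cells were irradiated and then, from day 1, given for 48 h the uncoupler CCCP, which in cells that overexpress Parkin leads to removal of the mitochondria. The remaining groups were irradiated, treated with CCCP and given acetate (20 mM from day 3), mtDNA (transfected on day 10) or both, with collection on day 12 in the study's protocol. The labels do not say whether Prol and Sen (IR) cells overexpressed Parkin, and none of the 6 groups had CCCP with mitochondria kept or a transfection without mtDNA. The drug and the loss of mitochondria, and likewise mtDNA and its transfection, cannot be told apart here. Nothing in the labels says that the 3 libraries of a group came from separate cultures, so p-values measure only the spread between these libraries.

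TGF-beta ligands are secreted in a latent form and, once released, bring together the type II receptor TGFBR2 and the type I receptor TGFBR1, which phosphorylates SMAD2 and SMAD3. Activin A, a dimer of INHBA chains, uses other receptors but the same SMADs, and is bound and inactivated by follistatin, the product of FST. BMP2 signals through SMAD1, SMAD5 and SMAD9 to genes such as the ID family. SMAD7 is an inhibitory SMAD that is induced by the pathway and acts back on the type I receptor, and TGFBI is a matrix protein long known as a TGF-beta-induced gene. In senescent fibroblasts several of these ligands are counted among the secreted factors of the senescence-associated secretory phenotype (SASP).

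Total counts per library ran from 24624886 to 46224280. Counts of the protein-coding mtDNA genes made up 2.62% ± 0.295 (SD, n = 3) of Prol and 2.11% ± 0.468 of Sen (IR) libraries. They made up 0.122% ± 0.0116 of Sen (IR) + CCCP libraries. The second library of the acetate + mtDNA group stood apart at 0.237%, against 0.0624% and 0.064% in its other libraries. LMNB1, a nuclear lamina gene, fell in Sen (IR) by 1.49 on the log2 scale and the cell-cycle inhibitor CDKN1A rose by 0.50. The proliferation marker MKI67 averaged 59.1 CPM in Prol, 15.3 in Sen (IR), 30.4 in Sen (IR) + CCCP, 3.19 with acetate, 26.1 with mtDNA and 4.80 with both. Of 6 markers of other cell types 5 did not pass the filter on low counts, CD3E and CDH5 were at 0 in some groups, and the summed level of all 6 stayed between 0.749 and 5.23 TPM. The one tested, the epithelial EPCAM, fell by 1.52 with CCCP and by 1.26 more with acetate; its part in the results was not tested.

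The promoters of the genes that carry these changes are shown for reference. They are the 250 bases before the start in RefSeq (GRCh38.p14), which held an entry for 9 of the 10 genes and none for BMP2. FST is shown as the gene that rose most with CCCP. TGFB2 and TGFBR2 are shown as a ligand and a receptor that fell with CCCP and rose with acetate. INHBA is shown as the ligand that rose most with mtDNA. Capitals mark matches on either strand. The motifs searched were the AP-1 site, spelled TGANTCA, the cAMP response element (CRE), spelled TGACGTCA, and the SMAD palindrome, spelled GTCTAGAC. Also searched for were the E-box with the letters CACGTG, which many helix-loop-helix factors bind, and the TATA box with the letters TATAAA; none of the matches overlaps another. FST lies at chr5:53480379-53480628 (plus strand), TGFB2 at chr1:218345086-218345335 (plus), TGFBR2 at chr3:30606351-30606600 (plus) and INHBA at chr7:41703091-41703340 (minus), each printed 5′ to 3′ along the gene.
FST: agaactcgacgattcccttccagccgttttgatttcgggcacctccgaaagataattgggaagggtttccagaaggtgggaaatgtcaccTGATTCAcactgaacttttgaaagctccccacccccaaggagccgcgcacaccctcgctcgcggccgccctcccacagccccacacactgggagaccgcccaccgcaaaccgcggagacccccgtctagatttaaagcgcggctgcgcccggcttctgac
TGFB2: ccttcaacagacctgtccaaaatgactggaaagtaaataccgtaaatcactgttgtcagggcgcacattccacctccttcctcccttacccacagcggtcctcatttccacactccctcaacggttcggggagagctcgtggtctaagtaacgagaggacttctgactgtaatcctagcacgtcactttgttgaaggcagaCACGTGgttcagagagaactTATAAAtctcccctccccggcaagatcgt
TGFBR2: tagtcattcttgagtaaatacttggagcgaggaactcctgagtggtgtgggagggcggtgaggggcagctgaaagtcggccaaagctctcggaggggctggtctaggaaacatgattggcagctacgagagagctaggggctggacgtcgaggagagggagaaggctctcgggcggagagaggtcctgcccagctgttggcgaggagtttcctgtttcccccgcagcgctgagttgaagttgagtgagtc
INHBA: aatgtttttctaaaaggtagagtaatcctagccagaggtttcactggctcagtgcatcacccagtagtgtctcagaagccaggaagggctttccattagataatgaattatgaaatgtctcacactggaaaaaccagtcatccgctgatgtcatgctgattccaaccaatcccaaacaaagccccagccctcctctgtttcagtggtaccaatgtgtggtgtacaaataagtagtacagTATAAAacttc
The FST window holds the AP-1 letters 160 to 154 bases before the start, which 6.59% of 34943 promoter windows of this length hold. The TGFB2 window holds the E-box letters 49 to 44 bases before the start (6.32% of windows) and TATAAA 29 to 24 bases before it (10.8%). The INHBA window precedes the RefSeq start but lies inside the longer gene span that GENCODE gives, in an intron of its longer transcripts; it holds TATAAA 11 to 6 bases before the RefSeq start, and the TGFBR2 window holds none of the 5. The CRE letters (1.63% of windows) and the SMAD palindrome (0.183%) are in none of the 4. GC content was 60% in FST, 58.4% in TGFBR2, 50.4% in TGFB2 and 42.8% in INHBA.

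The levels of the 10 genes spanned a wide range. Per length, in TPM (transcripts scaled by gene length and library size), TGFBI was the most abundant in Sen (IR) libraries, at 2328 to 3022 TPM. TGFBR2 followed at 905 to 987 TPM, 16.2 ± 0.965 times the level of TGFBR1. BMP2 (209 to 224 TPM), INHBA (190 to 204 TPM), TGFB2 (112 to 118 TPM) and FST (82.3 to 102 TPM) were intermediate. TGFB1 lay at 60.7 to 64.9 TPM and the inhibitory SMAD7 at 13.2 to 14.6 TPM. TGFB3 was hardly transcribed, at 0.648 to 0.851 TPM, which rests on 21 to 45 counts per library. All changes below are on the CPM scale (counts scaled to library size) with TMM-scaled library sizes, as log2 fold changes with standard errors (SE) from a model of all 18 libraries, and a gene was called at a Benjamini-Hochberg adjusted p under 0.05. In such bulk libraries fewer cells with a transcript and less transcript per cell cannot be told apart.

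**Figure D1:**
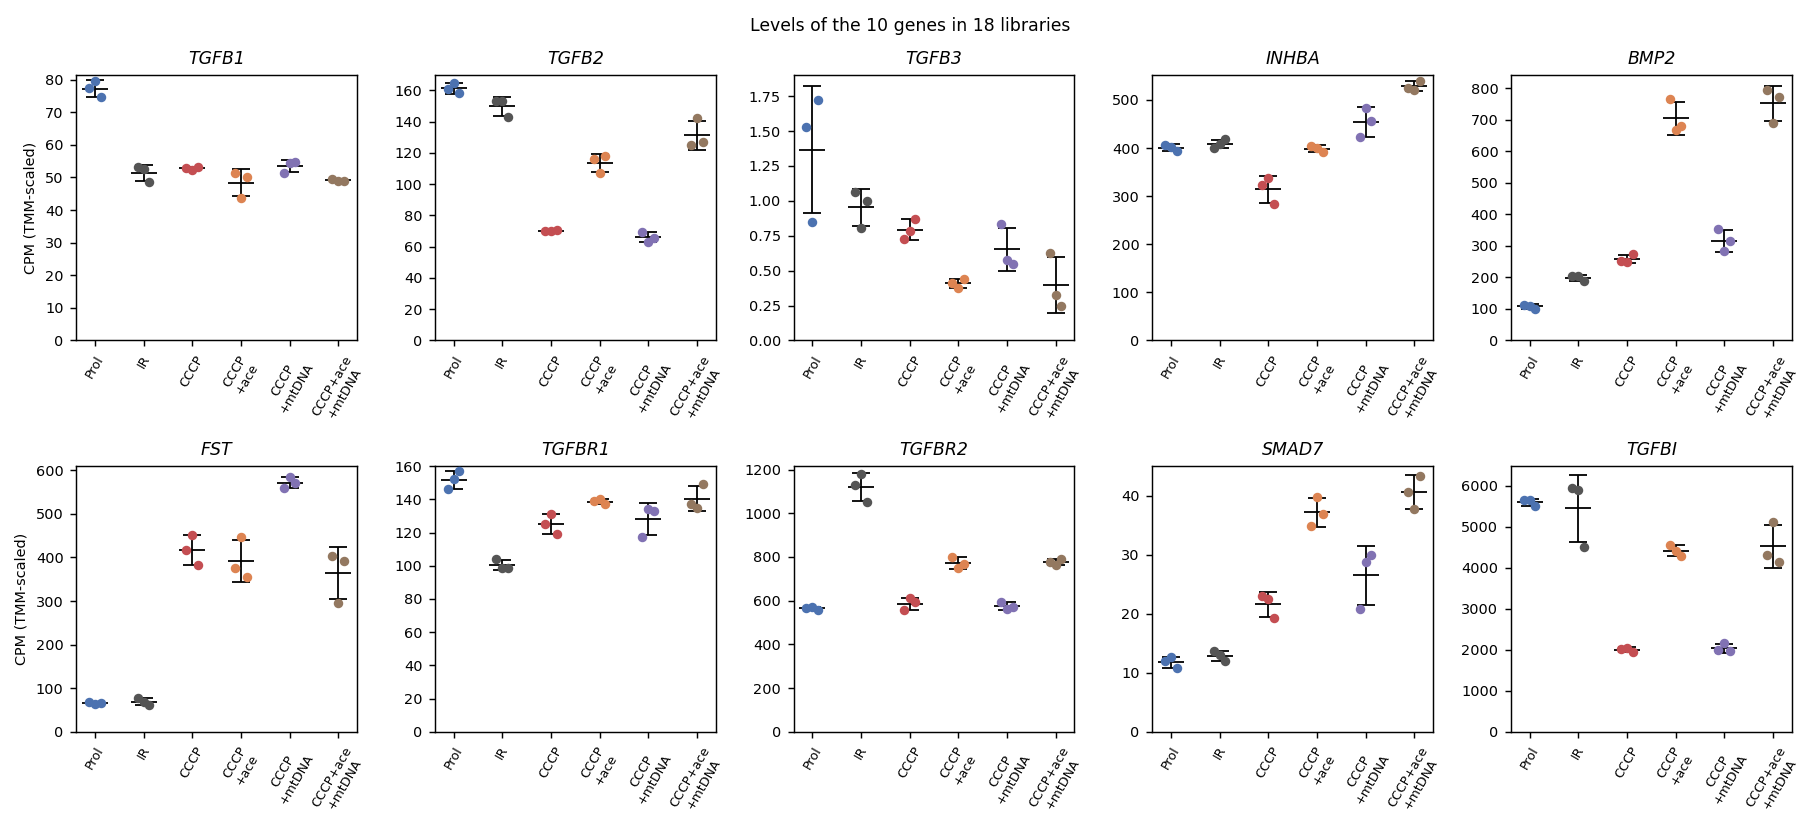
Levels of the 10 genes in CPM (y axis, from 0) in each of the 18 libraries, by group (x axis). Points are libraries and bars are mean ± SD of 3. FST is at most 76.4 CPM in all 6 libraries without CCCP and at least 295 CPM in all others, whereas TGFB2, TGFBR2 and TGFBI are low with CCCP alone or with mtDNA and higher wherever acetate was given.

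The first comparison asks what irradiation-induced senescence did to the pathway. Both receptors moved, in opposite directions, together with the BMP ligand and the TGF-beta isoform TGFB1. TGFBR2 stood at 559 to 572 CPM in Prol and at 1050 to 1180 CPM in Sen (IR), a rise of 0.98 on the log2 scale (SE 0.049). TGFBR1 stood at 146 to 157 CPM in Prol and at 98.7 to 104 CPM in Sen (IR), so it fell by 0.59 (SE 0.055). The groups did not overlap for either receptor, and their TPM ratio went from 5.44 ± 0.240 to 16.2 ± 0.965. BMP2 rose from between 100 and 113 CPM to between 187 and 204 CPM, by 0.87 (SE 0.076). TGFB1 fell from 77.6, 79.6 and 74.6 CPM to 53.1, 52.7 and 48.6 CPM, by 0.59 (SE 0.055).

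In all, 4 of the 10 genes were called in Sen (IR) against Prol, 2 higher and 2 lower, where 56.7% of all genes tested were called. The ligand INHBA and its inhibitor FST were at the same level in both groups within their spread: INHBA at 393 to 406 CPM in Prol and 400 to 418 CPM in Sen (IR), and FST at 64.8 to 67.1 CPM and 60.4 to 76.4 CPM. TGFB2 was 0.11 lower on the log2 scale (SE 0.053, adjusted p = 0.0947), and without the second Sen (IR) library it was called. TGFB3 was 0.52 lower (SE 0.279, adjusted p = 0.119) and was called without the second Prol library. SMAD7 and TGFBI overlapped between the groups, with TGFBI at 4500 CPM in the third Sen (IR) library and at 5960 and 5890 CPM in the others.

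Around these genes, the signal-carrying SMADs fell: 6 of 6 were lower in Sen (IR), with SMAD4, the common partner of all of them, down by 0.74 (SE 0.050) and SMAD9 by 0.63. The list counts here stand beside 26.7% of all genes tested called higher and 29.9% called lower. Genes that store or release latent TGF-beta were lower in 7 of 10 tested and higher in 2, led by LTBP4, a latent TGF-beta binding protein, down by 1.51, and LRRC32, which tethers latent TGF-beta to the cell surface, down by 1.22. Of 15 genes widely used as TGF-beta targets, 10 fell and 3 rose (median -0.62, against -0.011 for all genes tested). COL1A1, the main chain of collagen I, fell by 1.16 and ELN, elastin, by 1.60, while COMP, a cartilage matrix protein, rose by 3.18 and ADAM12 by 1.01. Fibroblast markers were lower in 6 of 8 in the same comparison, COL1A1 and COL1A2 being on both lists; their part in the target counts was not tested. Of 5 BMP targets 2 rose, HEY1 and, by 0.64, ID3, and leaving out single libraries ended these calls. Among other ligands 4 of 10 rose, with the stress-induced GDF15 up by 1.60, and 4 fell, with BMP7 down by 1.72. Extracellular antagonists split 3 to 3 of 7, with the BMP antagonist CHRDL1 falling by 2.20. Intracellular inhibitors also split 3 to 3 of 11, with the decoy receptor BAMBI up by 1.01 and SMAD6, the BMP-directed inhibitory SMAD, down by 1.40. Among 11 other receptors 5 rose and 4 fell, and the type II BMP receptor BMPR2 fell by 0.82. The receptor falls numbered 2 with only these 6 libraries, on library totals and on log2(TPM + 1). The receptor rises numbered 2 without the first Sen (IR) library and 3 without the second Sen (IR) or the third Prol library, and the latency rises dropped to 0 without the first or the third Prol or the first or second Sen (IR) library.

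The second comparison takes irradiated cells with and without mitochondria, and here the antagonist moved most. FST stood at 76.4, 68.2 and 60.4 CPM in Sen (IR) and at 418, 452 and 382 CPM in Sen (IR) + CCCP. It rose by 2.61 on the log2 scale (SE 0.105), or 6.10-fold. Its ligand went the other way: INHBA was at 400, 408 and 418 CPM in Sen (IR) and at 323, 337 and 283 CPM with CCCP, a fall of 0.38 (SE 0.056). In TPM, INHBA exceeded FST 2.16 ± 0.301 times in Sen (IR) and reached 0.269 ± 0.00594 of it with CCCP, with no overlap (exact two-sided permutation p = 0.1, the smallest that 3 against 3 allows).

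The scale matters for INHBA. With CCCP the median log2 change of all genes was higher by 0.41 on the TPM scale and by 0.24 on library totals than on the TMM scale. INHBA was -0.12 and not called on library totals, and 0.045 and not called on log2(TPM + 1), so its fall is relative to the bulk of genes as TMM sets it. TGFB1 was 0.036 (SE 0.055) and not called on the TMM scale, with 53.0, 52.3 and 53.1 CPM against 53.1, 52.7 and 48.6 CPM, but 0.30 and 0.46 higher and called on the other scales. The fall of TGFB2, TGFBR2 and TGFBI and the rise of FST, SMAD7, BMP2 and TGFBR1 were called on each of these scales.

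TGFB2, the TGF-beta isoform with the highest transcript level in Sen (IR), stood at 153, 153 and 143 CPM in Sen (IR) and at 69.8, 70.3 and 70.5 CPM with CCCP. This is a fall of 1.09 (SE 0.054). On the TMM scale TGFBR2 returned to the Prol level, from 1050 to 1180 CPM down to 556 to 610 CPM. Its libraries there overlapped those of Prol. In TPM they stayed above Prol, at 636 to 693 against 442 to 469. Sen (IR) + CCCP against Prol was not tested. TGFBI dropped from 5960, 5890 and 4500 CPM to 2020, 2050 and 1940 CPM, a log2 change of -1.44 (SE 0.084), with no overlap even with the lowest Sen (IR) library. These 3 genes are a receptor, a ligand and an output of 1 route, and each fell. Other parts of that route did not: TGFBR1 rose, TGFB1 was not called, and of 6 SMADs 4 rose and 1 fell. Whether signalling through the route changed was not tested.

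SMAD7 moved in the opposite direction to TGFB2, TGFBR2 and TGFBI. It was at 13.6, 13 and 12 CPM in Sen (IR) and at 23.0, 22.5 and 19.2 CPM with CCCP, a rise of 0.74 (SE 0.110). BMP2 rose by 0.39 (SE 0.075), from 187 to 204 CPM up to 248 to 274 CPM, and TGFBR1 by 0.31 (SE 0.055), to 119 to 131 CPM. TGFB3 overlapped between the groups. In total 8 of the 10 genes were called, 4 higher and 4 lower, where 65.2% of all genes tested were called.

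Among the isoforms the balance turned over. TGFB2 supplied 64.4% ± 0.244 of the summed TGF-beta transcripts (TPM) in Sen (IR) and 45.3% ± 0.264 with CCCP, and TGFB1 the larger share in the latter, at 54.2% ± 0.281 (exact two-sided permutation p = 0.1 for the TGFB2 share). The summed level went from 179.8 ± 5.23 to 161 ± 1.02 TPM. This fall would be larger on the TMM scale, since in this comparison the TPM scale lifts the median change of all genes by 0.41.

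**Figure D2:**
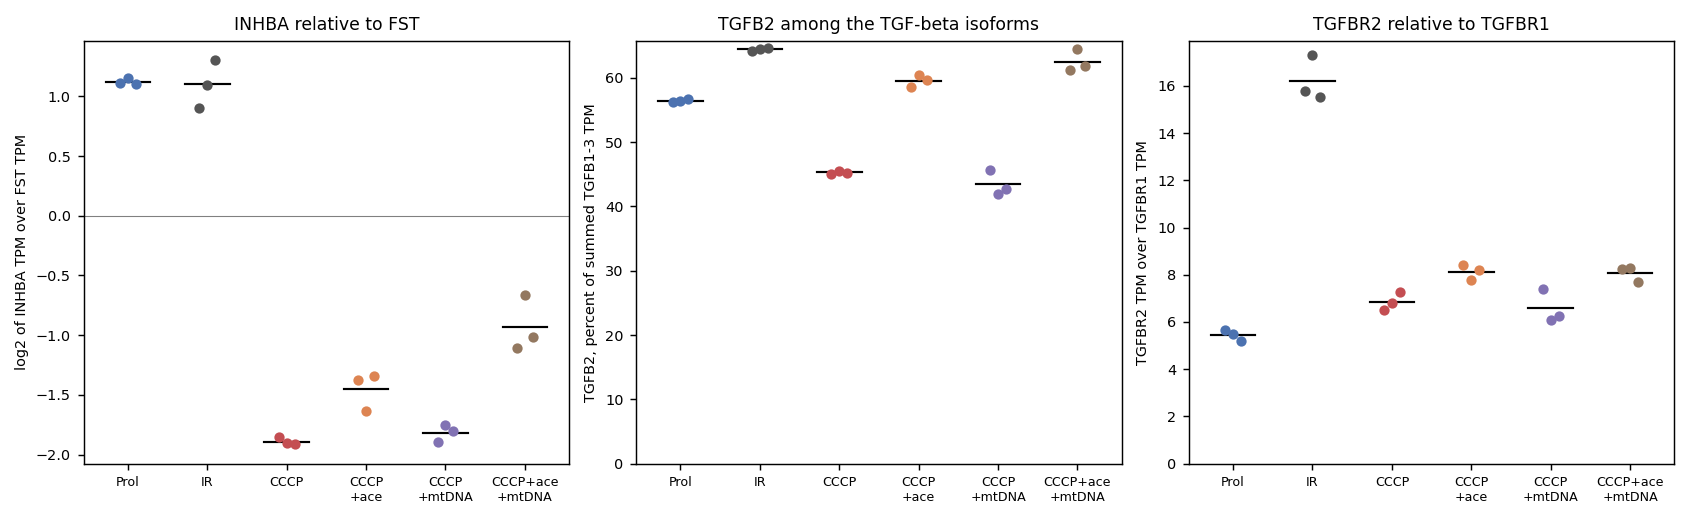
INHBA over FST as the log2 of TPM (left), TGFB2 as a percent of TGFB1, TGFB2 and TGFB3 in TPM (middle) and TGFBR2 over TGFBR1 in TPM (right), for each library by group, with lines at the means. INHBA exceeds FST only without CCCP, the TGFB2 share is 41.9 to 45.7% with CCCP alone or with mtDNA and 58.5 to 64.4% wherever acetate was given, and the receptor ratio peaks in Sen (IR) at 15.5 to 17.3.

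The targets of the BMP and TGF-beta branches went in opposite directions with CCCP. Of the 15 TGF-beta targets, 14 fell and 1 rose (median -2.18, against 0.026 for all genes). POSTN, periostin, fell by 3.56 (SE 0.217), and ELN, already low at 0.305 to 0.517 CPM, to at most 0.0505 CPM. The exception was IL11, a fibrogenic cytokine, which rose by 2.15 (SE 0.075). All 5 BMP targets rose (median 2.48): ID1, an inhibitor of differentiation, from 1.13 to 1.72 CPM up to 17.3 to 29.9 CPM, by 4.14 (SE 0.319), and ID4 by 3.17 (SE 0.349). Requiring 10 counts in every library left 12 targets lower and 3 BMP targets higher, since the low genes then drop out.

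All 8 fibroblast markers fell in the same comparison (median -2.29), and their summed level was 5491 to 5682 TPM against 9988 to 12002 TPM in Sen (IR). None of the 8 was at 0 in any group. MKI67 rose by 1.00 and LMNB1 by 0.64. Whether these changes have a part in those of the targets was not tested.

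The other steps of the pathway are given by role, several of them with genes in both directions. Of all genes tested, 34% were called higher and 31.3% lower. Of 10 genes of latency and activation 7 fell and none rose, with LRRC32 down by 3.58 and LTBP2 by 1.69; on log2(TPM + 1) 5 fell. Among the SMADs, SMAD3, the TGF-beta and activin mediator, fell by 0.67 (SE 0.044), whereas the BMP mediators SMAD9 and SMAD5 rose by 1.23 (SE 0.130) and 0.73 (SE 0.045). SMAD2, which shares the TGF-beta and activin route with SMAD3, rose by 0.41 and SMAD4 by 0.72 (both named after their values were seen), so that 4 of 6 were higher and 1 lower. Intracellular inhibitors were higher in 7 of 11, led by LDLRAD4 at 2.04 (SE 0.550) and the SMAD repressor SKI at 1.25, and lower in 3, with the ubiquitin ligase SMURF2 going from a mean of 1036 to 450.0 CPM and BAMBI down by 0.74. Extracellular antagonists fell in 4 of 7, with BMPER down by 2.74 and noggin (NOG) by 1.63, and rose in 2, with gremlin (GREM1) up by 0.52. Ligands outside the 10 genes fell in 3 of 10, BMP4 by 2.68 and BMP7 by 1.82 at the head, and rose in 2, GDF6 by 1.66 and GDF15 by 0.84. The other receptors split 5 to 5 of 11, with BMPR1B up by 0.81, BMPR2 up by 0.65 and ACVRL1, a type I receptor better known from endothelium, down by 1.36. On log2(TPM + 1) only 1 of these 5 falls was called.

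**Figure D3:**
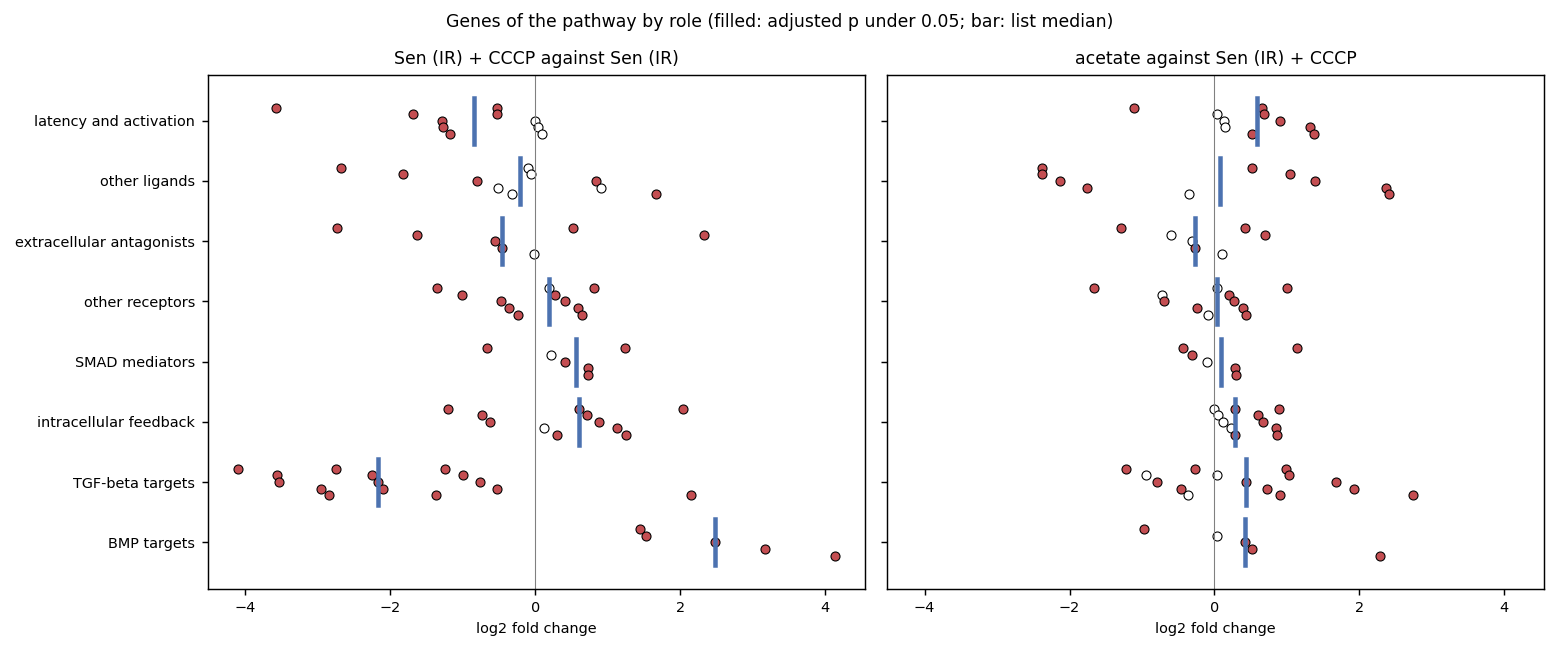
Log2 fold changes (x axis) of the other pathway genes by role (y axis), with CCCP (left) and with acetate after CCCP (right); each point is a gene, filled where called, and the bar is the list median. With CCCP the TGF-beta targets lie left of 0 apart from 1 gene and the BMP targets lie right of it.

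In GENCODE v44 (GRCh38) the genes lie apart on the genome, FST at chr5:53480626-53487134 (plus strand) and TGFBI far off on the same chromosome at chr5:136028988-136063818 (plus). TGFB2 (chr1:218345336-218444619, plus) shares 701 exonic bases with TGFB2-AS1 on the opposite strand, which had 114 to 472 counts per library against 1757 to 6516 for TGFB2. INHBA (chr7:41667168-41705834, minus) shares 248 with INHBA-AS1, which had 17 to 52 counts. TGFB1 (chr19:41301587-41353922, minus) shares 215 exonic bases with HNRNPUL1 on the opposite strand. The study's methods say that strand was used in counting where a library was strand-specific, but not whether these libraries were, so reads in these stretches may come from either gene. BMP2 is at chr20:6767686-6780246 (plus), TGFBR1 at chr9:99104038-99154192 (plus), TGFBR2 at chr3:30606601-30694142 (plus), SMAD7 at chr18:48919853-48950965 (minus) and TGFB3 at chr14:75958097-75983011 (minus).

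The third comparison asks what acetate, which cells convert to acetyl-CoA, did in cells without mitochondria. BMP2 rose most, from 253, 248 and 274 CPM with CCCP alone to 765, 668 and 680 CPM with acetate, by 1.45 on the log2 scale (SE 0.075), or 2.72-fold. Every acetate library was above every library of Prol, Sen (IR) and CCCP alone. TGFBI rose from 1940 to 2050 CPM up to 4300 to 4560 CPM, by 1.14 (SE 0.084). This is below 2 of the 3 Sen (IR) libraries and on either side of the third, which was at 4500 CPM.

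On the TMM scale TGFB2 and TGFBR2 recovered only in part. TGFB2 reached 116, 107 and 118 CPM with acetate, 0.70 above CCCP alone (SE 0.054). The lowest Sen (IR) library was at 143 CPM. In TPM the acetate libraries, at 105 to 115 for TGFB2, overlapped those of Sen (IR), at 112 to 118. TGFBR2 reached 802, 748 and 770 CPM, a rise of 0.40 (SE 0.048). It stayed under all Sen (IR) libraries, the lowest of which was at 1050 CPM. It did so in TPM too, at 804 to 844 against 905 to 987. Acetate against Sen (IR) was not tested. The TGFB2 share of the isoforms was 59.5% ± 0.948 with acetate (exact two-sided permutation p = 0.1 against CCCP alone).

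SMAD7 did not return toward Sen (IR) but rose further. It went from 23.0, 22.5 and 19.2 CPM with CCCP alone to 34.8, 39.8 and 36.9 CPM with acetate, by 0.78 (SE 0.101), and all its acetate libraries lay above all Sen (IR) libraries. INHBA rose by 0.34 (SE 0.056), to 391 to 405 CPM, a range that on the TMM scale overlaps those of Prol and Sen (IR). In TPM the INHBA acetate libraries, at 236 to 244, lay above all Prol and Sen (IR) libraries. The highest of those was at 187 TPM in Prol and at 204 TPM in Sen (IR). FST stayed high: at 375, 446 and 355 CPM with acetate it overlapped CCCP alone, with a difference of -0.09 (95% confidence interval -0.29 to 0.11). The INHBA to FST ratio was 0.367 ± 0.0396 in TPM, above CCCP alone (exact two-sided permutation p = 0.1).

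Smaller changes were less firm. TGFBR1 rose by 0.15 (SE 0.054), a call lost without the third CCCP library, on library totals and on log2(TPM + 1). TGFB3 fell by 0.94 (SE 0.324) on 12 to 31 counts per library, a call lost without the third CCCP library or the second acetate library. TGFB1 was 0.13 lower and not called (SE 0.055, adjusted p = 0.0558); it passed on library totals, on log2(TPM + 1), with only these 6 libraries, with at least 10 counts in every library and without the first acetate library. Altogether 8 of the 10 genes were called with acetate, 7 higher and 1 lower, where 57.1% of all genes tested were called.

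**Figure D4:**
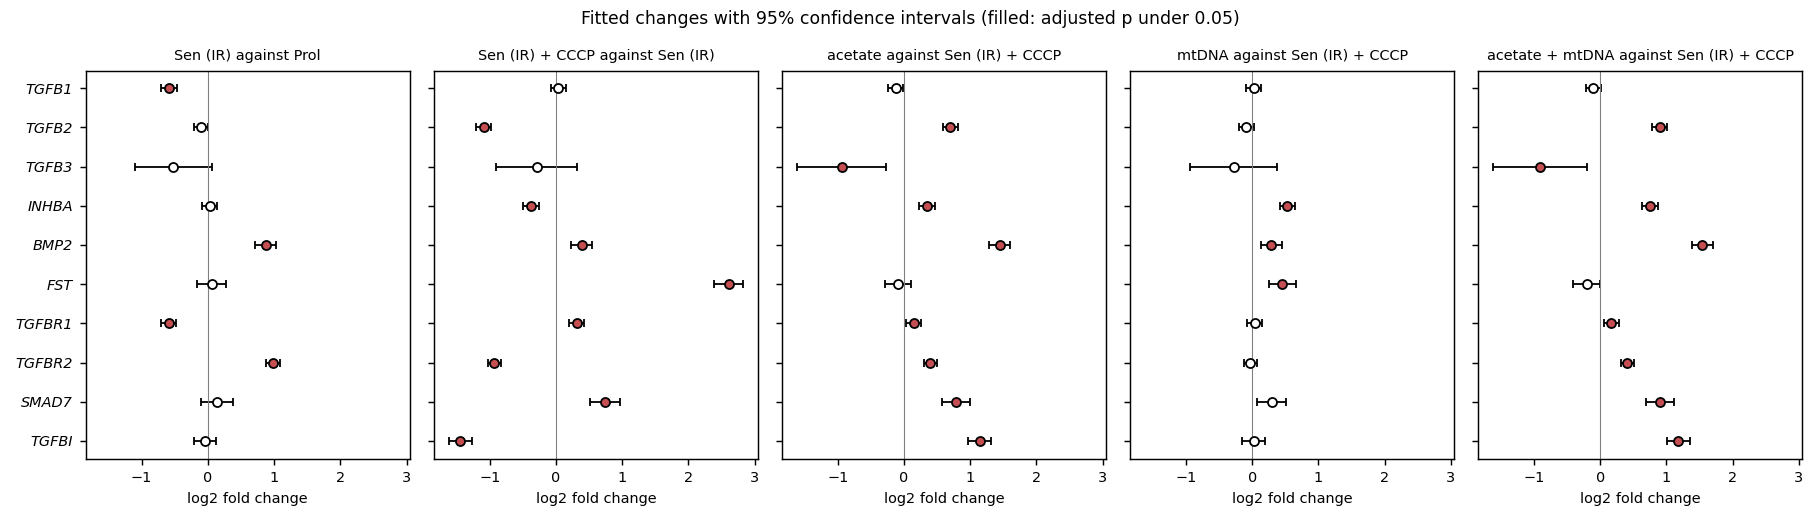
Fitted log2 fold changes of the 10 genes (x axis) in 5 comparisons, with 95% confidence intervals; filled points passed the threshold. FST moves to the far right with CCCP and stays near 0 with acetate, and the falls of TGFB2, TGFBR2 and TGFBI with CCCP are faced by rises with acetate; the 2 comparisons share the CCCP libraries.

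Among the pathway lists, acetate raised 8 of 15 TGF-beta targets and lowered 4 (median 0.44, against 0.0054 for all genes). Of all genes tested, 28.8% were called higher and 28.3% lower. CCN2, connective tissue growth factor, rose by 1.93 (SE 0.095), whereas the collagen gene COL1A2 fell by 0.79 and ADAM12 by 1.22. ELN was called higher, at 0.0441 to 0.311 CPM, but its groups overlapped and the call was lost without the first CCCP library, without the first acetate library and on log2(TPM + 1). Latency genes were higher in 6 of 10 and lower in 1: THBS1, which activates latent TGF-beta, rose by 1.37 and ITGAV, the alpha chain of the activating integrins, by 1.31, while ITGB8 fell by 1.11. No intracellular inhibitor fell and 7 of 11 rose, with SMURF2 up by 0.88 and SMAD6 by 0.87. SMAD9 rose by 1.14 and SMAD3 by 0.30, SMAD1 fell by 0.43 and SMAD4 by 0.31, in a list of 6 with 3 higher and 2 lower. Of 5 BMP targets 3 were higher, with HEY1 up by 2.29 (SE 0.233) and ID1 by 0.52 (SE 0.214), and ID4 was lower by 0.97; the ID1 call was lost in 7 alternatives, and on log2(TPM + 1), on library totals, with DESeq2 and without the third CCCP or second acetate library 1 rise was called. Other ligands split 5 to 4 of 10, GDF15 and INHBE rising by 2.40 and 2.37 and GDF5 and BMP6 each falling by 2.38. Other receptors had 5 rises and 3 falls of 11, with ACVR2B up by 1.00, ACVRL1 by 0.44, TGFBR3 down by 0.70 and BMPR1B down by 1.66. Extracellular antagonists split 2 to 2 of 7, with FSTL3, a relative of follistatin, up by 0.42 and BMPER down by 1.29.

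Cell-cycle and identity genes moved alongside. With acetate MKI67 fell by 3.23 and LMNB1 by 2.19, CDKN1A rose by 0.75, and the fibroblast markers had 3 rises and 4 falls of 8, with LUM up by 1.95 and COL3A1 down by 1.46. Their summed level was 3992 to 4111 TPM. Whether these have a part in the changes above was not tested.

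The fourth comparison gave mtDNA in place of acetate. Here the activin pair moved together. INHBA rose from 323, 337 and 283 CPM to 422, 484 and 457 CPM, by 0.53 (SE 0.056), and every mtDNA library was above every library of Prol, Sen (IR) and CCCP alone. FST rose from 418, 452 and 382 CPM to 559, 584 and 571 CPM, by 0.45 (SE 0.098, adjusted p = 0.0022), its highest level in the series. With ligand and inhibitor both up, the INHBA to FST ratio was 0.284 ± 0.0136 in TPM and overlapped that of CCCP alone (exact two-sided permutation p = 0.2).

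BMP2 rose by 0.29 (SE 0.074), from 248 to 274 CPM up to 283 to 352 CPM, a call that was lost without the first mtDNA library and on log2(TPM + 1). SMAD7 just missed the threshold, at 0.30 (SE 0.104, adjusted p = 0.0518). Its libraries were at 20.8, 28.8 and 30.0 CPM, and without the first of these it was 0.46 higher and called; DESeq2's Wald test, its size factors and the fit without a filter called it as well. TGFB2 was at 69.4, 63.1 and 65.4 CPM with mtDNA and at 69.8, 70.3 and 70.5 CPM without, a difference of -0.09 (SE 0.055) that was called on library totals and on log2(TPM + 1) only. TGFBR1, TGFBR2, TGFB1, TGFB3 and TGFBI overlapped between the groups. So 3 of the 10 genes were called, all higher, where 18.1% of all genes tested were called and 10.7% were called higher.

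The pathway lists with mtDNA are set against the same 18.1% of all genes tested. No latency gene and no BMP target was called, of 10 and 5 tested with edgeR, and under other settings at most 2 and 1 were. Of 11 intracellular inhibitors, TGIF1, a SMAD corepressor, rose by 0.66 (SE 0.056), BAMBI by 0.64 (SE 0.093), and SMAD6 fell by 0.64 (SE 0.167), a call lost without the second CCCP or the first mtDNA library. TGF-beta targets had 1 rise and 3 falls of 15, the rises running from 0 to 3 under the alternatives and to 0 without the first or the third CCCP library or the second or the third mtDNA library, with COL1A1 down by 0.72 (SE 0.087) and COL1A2 by 0.47. INHBE rose by 0.93, GDF15 by 0.58, GREM1 by 0.41 and ACVR1B, the activin type I receptor, by 0.35. Of 6 SMADs 2 rose and 2 fell, SMAD5 by 0.20; without the first mtDNA library none rose and 1 fell, and without the first or second CCCP library 1 fell. The other lists had 2 rises and 2 falls of 10 ligands, 2 rises of 11 receptors, and 1 rise and 1 fall of 7 extracellular antagonists. Of these, the ligand falls dropped to 0 without any one CCCP library or the first mtDNA library, the receptor rises to 1 without the first mtDNA library, and the antagonist fall to 0 without the first or second CCCP library or the first or the third mtDNA library. COL1A1 and COL3A1 were also among 3 fibroblast markers of 8 that fell.

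With acetate and mtDNA together, against CCCP alone, 8 of the 10 genes were called, 7 higher and 1 lower, where 61.7% of all genes tested were called. INHBA reached 524, 521 and 540 CPM, its highest level in the series and above every other library, a rise of 0.75 (SE 0.057) or 1.68-fold. BMP2 rose by 1.54 (SE 0.076) to 795, 690 and 772 CPM. TGFBI rose by 1.17 (SE 0.084), SMAD7 by 0.91 (SE 0.102), TGFB2 by 0.90 (SE 0.054), TGFBR2 by 0.41 (SE 0.048) and TGFBR1 by 0.17 (SE 0.055). TGFB3 fell by 0.91 (SE 0.340) on 7 to 31 counts, a call lost without either of 2 libraries on each side and with DESeq2. TGFBR1's call was lost on library totals and on log2(TPM + 1).

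FST, like TGFB1 and TGFB3, was not raised by the combination. Its libraries were at 404, 295 and 391 CPM, the low one being the library with the high mtDNA share, whose part in the result was not tested. The difference from CCCP alone was -0.20 (SE 0.098, adjusted p = 0.0802), called on library totals, on log2(TPM + 1), without a filter and without the first library of the combination. TGFB1 was 0.11 lower (SE 0.056, adjusted p = 0.108) and was called on the same 2 other scales. The INHBA to FST ratio was 0.530 ± 0.0894 in TPM, above every other CCCP group, and all 3 libraries stayed under 1.

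Finally, each agent was added to the other. Adding mtDNA to acetate called 2 of the 10 genes, where 12.6% of all genes tested were called. These were INHBA, which rose by 0.40 (SE 0.056) from 391 to 405 CPM up to 521 to 540 CPM, and TGFB2, which rose by 0.20 (SE 0.053, adjusted p = 0.0142) from 107 to 118 CPM up to 125 to 142 CPM. The TGFB2 call was lost with only these 6 libraries, without the second acetate library and without the second library of the combination; the INHBA call was not. In the lists, 1 of 10 latency genes, 1 of 11 receptors, 1 of 6 SMADs, 2 of 11 intracellular inhibitors and 2 of 15 TGF-beta targets rose, and 1 of 7 antagonists fell. Under the alternatives the inhibitors ran from 0 to 3, with 2 again in 1 of 15 alternatives, the receptors from 0 to 2, with 0 without any one acetate library or the first or the third library of the combination, and the targets from 1 to 8. The SMAD rise was lost without the third acetate library, and the antagonist fall without the second acetate library or the third library of the combination. Adding acetate to mtDNA called 8 of the 10, where 57.4% of all genes tested were called. BMP2 rose by 1.25 (SE 0.075), TGFBI by 1.15 (SE 0.084), TGFB2 by 0.99 (SE 0.055), SMAD7 by 0.61 (SE 0.102), TGFBR2 by 0.43 (SE 0.048), INHBA by 0.22 (SE 0.056) and TGFBR1 by 0.13 (SE 0.055, adjusted p = 0.0457). FST was the 1 gene of the 10 called lower, from 559 to 584 CPM down to 295 to 404 CPM, by 0.65 (SE 0.098). TGFB1 was 0.13 lower and not called (SE 0.056, adjusted p = 0.0595), but was called on library totals and on log2(TPM + 1). The INHBA call was lost on library totals, and that of TGFBR1 in 6 alternatives, 2 of which each left out a library.

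The effect of mtDNA with acetate minus its effect without, the interaction, was called for 0 of the 10 genes with edgeR, where 0.659% of all genes tested were called. At an unadjusted p under 0.05, 2 of the 10 passed, FST and TGFB2, and DESeq2's Wald test called the same 2 while limma on log2(TPM + 1) called 1. FST had an interaction of -0.56 (SE 0.138, adjusted p = 0.0691). Its difference with mtDNA was 0.45 without acetate and -0.11 with it. The interaction was called without the first or the second library of the combination and without a filter. TGFB2 had 0.29 (SE 0.076, adjusted p = 0.0937) and was called on library totals and on log2(TPM + 1). The interaction of INHBA was -0.13 (95% confidence interval -0.29 to 0.039) and that of BMP2 -0.20 (-0.41 to 0.021).

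The order of the groups by mean CPM was not the same for all 10 genes. Orders here are on the TMM scale. In TPM only those of FST, BMP2 and SMAD7 stay the same, and those of the other genes differ. TGFB1 was highest in Prol, and the other 5 groups overlapped with their neighbours in the order. TGFB2 fell through the groups from Prol over Sen (IR), acetate + mtDNA, acetate and CCCP to mtDNA with no overlap at any step, though Sen (IR) against Prol and mtDNA against CCCP alone were not called, and the step between Sen (IR) and acetate + mtDNA was not tested. FST was low in Prol and Sen (IR), which overlapped, then intermediate in the acetate + mtDNA, acetate and CCCP groups, which also overlapped, and highest with mtDNA. BMP2 climbed from Prol through Sen (IR), CCCP and mtDNA to the 2 acetate groups, and only these last overlapped. SMAD7 had the same order as BMP2, with overlap between Prol and Sen (IR), between CCCP and mtDNA and between the 2 acetate groups. TGFBR2 was highest in Sen (IR), then in the 2 acetate groups, and Prol, mtDNA and CCCP overlapped at the bottom. TGFBR1 was highest in Prol, overlapping the combination, and lowest in Sen (IR). In TPM its mean was highest with acetate, at 101, against 83.5 in Prol.

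For each of the 10 genes the 3 genes with the most similar profile were found by Pearson's r of log2 CPM over the 18 libraries, a description that rests mostly on the 6 group means. INHBA was closest to TNFAIP3 (r = 0.930), PARP12 (0.876) and RELB (0.872). BMP2 was closest to GDF15 (0.995), DUSP6 (0.994) and CITED2 (0.991), and TGFB2 to LUM (0.990), MAN2B1 (0.990) and VEZT (0.990). TGFBI shared MAN2B1 (0.986) and VEZT (0.986) with TGFB2, beside DNAJC10 (0.988). FST was closest to REPS1 (0.990), EYA4 (0.990) and VPS26C (0.990), and SMAD7 to RIOK3 (0.989), AHR (0.984) and GIT1 (0.982). The receptors differed: TGFBR2 went with ANGPT1 (0.985), SARAF (0.981) and DDA1 (0.978), and TGFBR1 with SIPA1L3 (0.961), KLF12 (0.951) and RUNX1 (0.951). TGFB1 was closest to ARNT2 (0.971), CEMIP (0.967) and RPSA (0.962), and TGFB3 to C21orf58 (0.903), AC138207.8 (0.902) and ACADS (0.902).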

How the data were processed

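The libraries were polyA RNA-seq with paired reads. Per the submitters' notes, the authors used Trimmomatic 0.36 for trimming, STAR 2.5.2b for alignment (build GRCh38) and featureCounts from Subread 1.5.2 for counting per gene. The authors deposited raw counts without normalization and, separately, TPM, which divide by gene length and library size; the methods tie strand-aware counting to strand-specific libraries, and whether these were so is not given in the sources used here. Samples were grouped by their labels, and 0 columns were left without a sample. From the counts, edgeR 4.0.16 (R 4.3.3) was used for the quasi-likelihood test, in 1 fit over the 18 libraries with a mean for each of the 6 groups, TMM scaling, filterByExpr (16994 genes kept) and Benjamini-Hochberg adjustment at 0.05. Ratios used TPM and exact two-sided permutation tests. The procedure was tested on simulated counts. The members and lists were chosen with earlier results of these data known. Named list genes are at most 2 called rises and 2 called falls per list and comparison, and likeness names the 3 genes with the highest r (prior count 2). One gene that this rule selects is not reported here. Same-numbered replicates of different groups did not deviate together, so no block was used. Alternatives were DESeq2 1.42.0, its size factors, other filters, fewer libraries, a replicate block and, added after the data were seen, library totals and limma 3.58.1 on log2(TPM + 1). Figures used matplotlib. Total counts set the precision, and intervals cover the fitted spread between libraries.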

Additional observations from a re-analysis of the deposited data

Results flagged for a closer look

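In the genes around the pathway, 2 had an effect of mtDNA that differed between cells with and without acetate by edgeR's test of the interaction. TGIF1, a corepressor of SMADs, had an interaction of -0.48 on the log2 scale (SE 0.0790, adjusted p = 0.00408): its change with mtDNA was 0.66 without acetate and 0.18 with it. The latter call was lost without a filter, with only the groups compared, on library totals, on log2(TPM + 1), and without any one acetate library or the first or second library of the combination. BAMBI, a decoy receptor, had -0.61 (SE 0.131, adjusted p = 0.0292), a call lost on log2(TPM + 1) and without most single libraries of the 4 groups involved. No group has more than 3 libraries, so single libraries were not tested as outliers. Between replicates, the chi-square of counts per degree of freedom was 27.2 and 22.1 in pairs with the third Sen (IR) library. The other Sen (IR) pair was at 3.29. Pairs with the second library of the combination were at 28.2 and 24.7, and its other pair at 3.33. In the remaining groups no pair was above 7.69.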

How the results depend on the processing

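Of the called changes of the 10 genes, 587 values under the alternatives kept their direction and their call, 24 kept the direction and lost the call, and 2 changed direction. These 2 are INHBA with CCCP, 0.045 on log2(TPM + 1), and TGFBR1 with acetate + mtDNA against CCCP alone, -0.0087 on library totals; both scales shift the median of all genes. Among uncalled values, TGFB1 with CCCP ran from -0.0018 to 0.066 and the log2 INHBA to FST ratio of Sen (IR) against Prol from -0.12 to 0.079 when single libraries were left out. The interaction, with 0 of the 10 genes called, gave 2 with DESeq2's Wald test, 1 without a filter, 1 on library totals, 1 on log2(TPM + 1) and 0 to 1 with single libraries left out; over all genes its count of 112 became 264 with DESeq2 and 413 without a filter, and 55 to 403 with single libraries left out, highest without the second library of the combination. Adding mtDNA to acetate, with 2 of the 10 called, gave 1 with only the groups compared and 1 to 2 with single libraries left out; its count of 2136 genes fell to 1241 without the second and 1296 without the third acetate library. The cause of these changes was not tested. TGFB3 had no value where 10 counts were required in every library. Same-numbered libraries of different groups correlated at -0.0821 to 0.0917 and 8 of 18 libraries correlated best with their own number; a replicate block called 8 of the 10 genes with CCCP, as without it, and changed no call among the 10. Counts of 7 to 66 per library limit TGFB3.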
